A study of Mus musculus with 16 samples.

Results

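The genes described here were 10 chemokine genes of the mouse dorsal root ganglion (DRG): Ccl2, Ccl5, Ccl7, Ccl8, Cxcl9, Cxcl10, Cxcl12, Cxcl14, Cxcl16 and Cx3cl1. They were found by matching these symbols to the Ensembl identifiers of the count files, and all 10 of the 10 were among the 52636 genes listed and among the 21371 genes that passed the filter on low counts. Male C57Bl6/J mice, 3 to 4 months old, had received either spared nerve injury (SNI), in which the common peroneal and sural branches of the sciatic nerve were ligated and cut, or sham surgery. From 4 weeks after surgery by the labels (the written methods give an interval in months) they were injected 2 times a day for 3 weeks with saline or with desipramine (DMI), a tricyclic antidepressant, at 15 mg/kg in saline. L3-6 DRGs were taken from 1 mouse for each library, and each combination of surgery and drug (Sham-Saline, Sham-DMI, SNI-Saline, SNI-DMI) held 4 mice, so that every mouse of every group was operated and injected. The side from which the ganglia came is not given in the sources used here.

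Chemokines are small secreted or membrane-bound proteins that bind G protein-coupled receptors and direct the movement of white blood cells along a gradient. They are grouped by the spacing of their first cysteines into CC, CXC and CX3C families, and many of them are made only after a signal such as an interferon or tumor necrosis factor, while others are made constantly to hold cells in a tissue. In the DRG, chemokines are made by resident macrophages, satellite glia, vessel cells and neurons, and they are known for drawing monocytes and lymphocytes to the ganglion after a nerve is cut and for acting on receptors of the neurons themselves. The comparisons address whether chemokine transcripts differed after SNI, and whether DMI treatment changed them in injured or in sham-operated mice.

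Each library held 41194238 to 73920332 reads assigned to genes. The ganglion label was checked first, and the labels also name spinal cord as the tissue. The summed level of 8 sensory neuron markers was 8570 to 11100 CPM (read counts divided by library size, scaled by TMM). That of 8 genes listed for spinal cord, among them Slc17a6, was 227 to 300 CPM, and 4 of these genes did not pass the filter. The share of each gene in this sum is not given, so that it does not measure an amount of spinal cord. The summed level of 8 markers of injured sensory neurons was 64.3 to 79.2 CPM in Sham-Saline, 215 to 243 CPM in SNI-Saline, 82.7 to 113 CPM in Sham-DMI and 191 to 338 CPM in SNI-DMI, so that sham and SNI libraries did not overlap. The saline libraries carry sample numbers 33 to 40 and the DMI libraries 17 to 24, and each of the 4 groups has its own block of 4 numbers. Neither surgery nor drug can thus be told apart from any difference between these blocks. The SNI-Saline 2 and SNI-DMI 1 libraries stood apart for several chemokines, as described beside each result. In these bulk samples, more cells of a type and more RNA per cell cannot be told apart.

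In Sham-Saline mice, Cxcl12 was the most abundant of the 10 transcripts per length of gene, at 4.09 ± 0.376 CPM per kilobase of exon (SD, n = 4), and its libraries lay above those of every other member. Cxcl16 (2.43 ± 0.204) and Cx3cl1 (2.42 ± 0.33 CPM per kilobase) came next and overlapped with each other. Ccl2, Ccl7, Ccl8 and Cxcl10 followed at mean levels of 1.72, 1.59, 1.49 and 1.33 CPM per kilobase, and each overlapped with its neighbor in the order. The lowest were Ccl5 (0.75), Cxcl9 (0.516) and Cxcl14 (0.287 CPM per kilobase), again with overlap between neighbors. Thus the constantly made chemokine Cxcl12 and the pair of chemokines that are made as membrane proteins headed the list in uninjured, untreated ganglia.

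After injury without drug, 5 of the 10 chemokine genes were higher in SNI-Saline than in Sham-Saline mice by edgeR's quasi-likelihood test at a Benjamini-Hochberg adjusted p under 0.1: Cxcl10, Cxcl9, Cxcl14, Ccl8 and Cxcl16. None was lower, while 5.85% of all 21371 genes tested were called higher. The members were chosen with earlier results of these data known, so that such shares describe them and are no test of the set. The 5 fitted differences ran from 0.48 to 2.14 on the log2 scale, equal to 1.39-fold to 4.41-fold. By the study's nominal cut-offs for DEGs (unadjusted p under 0.05 with a log2 fold change of at least 0.32), Ccl5 joined these and 6 members were higher, against 3.64% of all genes. Over the 10 members the median log2 fold change was 0.85, while that of all genes tested was -0.001.

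**Figure D1:**
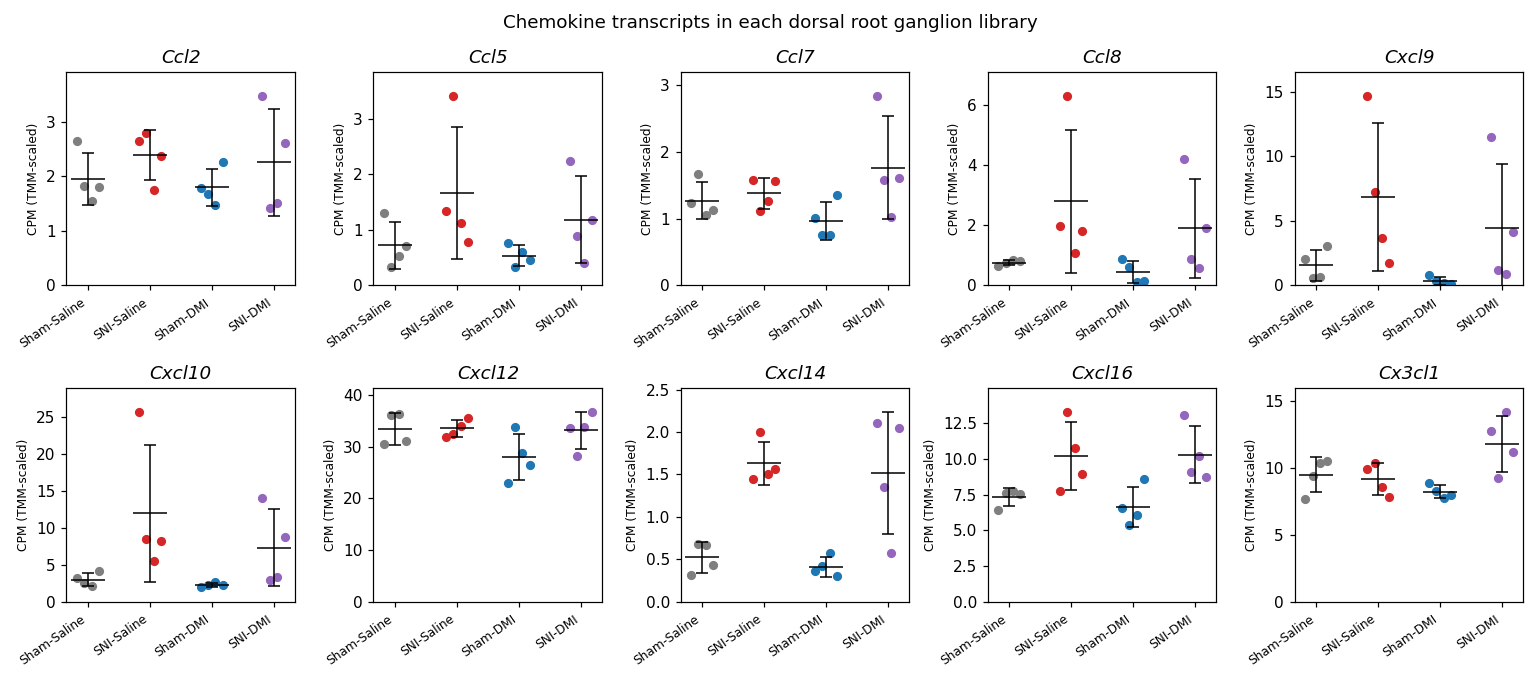
TMM-scaled CPM of each chemokine gene (vertical axes, from 0) in the 4 libraries of each group (points), with the mean (bar) and SD (whiskers, cut at 0). Cxcl10 lay at 2.16 to 4.09 CPM in Sham-Saline and at 5.48 to 25.7 CPM in SNI-Saline, and SNI-Saline 1 and SNI-DMI 1 were the highest libraries of their groups for Cxcl9 and Cxcl10.

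Cxcl9 and Cxcl10 are the interferon-induced ligands of Cxcr3, a receptor of activated T cells and natural killer cells. Cxcl10 (ENSMUSG00000034855, chromosome 5, 92346638 to 92348889 on GRCm38, minus strand) was at 3.18, 2.57, 2.16 and 4.09 CPM in the Sham-Saline libraries and at 25.7, 8.48, 5.48 and 8.2 CPM in the SNI-Saline libraries. All 4 injured mice lay above all 4 sham mice, and SNI-Saline 1 was more than 3 times as high as the next. On the log2 scale the fitted difference was 1.99 ± 0.468 (SE; adjusted p = 0.025), and the two-sided exact permutation test of 4 against 4 mice gave p = 0.0286, the smallest it can give. Cxcl9 (ENSMUSG00000029417, chromosome 5, 92321347 to 92328079, minus strand) was at 2.02, 0.55, 0.639 and 3.02 CPM in Sham-Saline and at 14.7, 7.26, 3.71 and 1.74 CPM in SNI-Saline. The groups overlapped, since SNI-Saline 4 was lower than Sham-Saline 1 and 4, and its SE was the largest of the 10. Its difference was 2.14 ± 0.755 (adjusted p = 0.0956), and the exact permutation test gave p = 0.0857. Without SNI-Saline 1, the difference of Cxcl10 fell to 1.32 (adjusted p = 0.105) and that of Cxcl9 to 1.46 (adjusted p = 0.317). Cxcl9 was called in 8 of the 16 fits that left out 1 library: the call was lost without Sham-Saline 1, 2, 3 or 4, SNI-Saline 1 or 2, Sham-DMI 3 or SNI-DMI 4, with adjusted p from 0.1 to 0.317, and it was lost as well with trends over GC content and gene length removed (2.16, adjusted p = 0.136). Cxcl10 was called in 15 of the 16. Cxcl10 overlaps on the opposite strand with Art3, which was itself higher by 0.35 (adjusted p = 0.0291) in this comparison, and since the use of strand by the counting is not stated, reads of the 2 genes may not be fully separated.

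The sequences before the start sites are shown for those members called higher after injury without drug that the RefSeq promoter table holds. The table (build GRCm38.p6) has an entry for 6 members, Cxcl9, Cxcl10, Cxcl12, Cx3cl1, Ccl8 and Cxcl14. Each line gives the 250 bases before the annotated start, 5′ to 3′ on the strand of the gene. Capitals mark matches to an ISRE-like motif (GAAANNGAAA, the kind of site read by interferon regulatory factors), a kappaB-like motif (GGGANNNNCC), a GAS-like motif (TTCNNNGAA, the kind of site read by STAT factors), each on both strands, or a TATA box (TATAAA, gene strand only); no 2 matches overlapped. The windows lie at chr5:92348890-92349139 (minus strand, Cxcl10), chr5:92328080-92328329 (minus strand, Cxcl9), chr13:56296552-56296801 (minus strand, Cxcl14) and chr11:82114935-82115184 (plus strand, Ccl8).
Cxcl10: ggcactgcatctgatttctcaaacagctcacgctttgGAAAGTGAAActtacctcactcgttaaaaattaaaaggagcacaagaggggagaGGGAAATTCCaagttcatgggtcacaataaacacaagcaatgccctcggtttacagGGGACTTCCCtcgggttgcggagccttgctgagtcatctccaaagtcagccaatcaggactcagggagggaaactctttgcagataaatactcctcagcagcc
Cxcl9: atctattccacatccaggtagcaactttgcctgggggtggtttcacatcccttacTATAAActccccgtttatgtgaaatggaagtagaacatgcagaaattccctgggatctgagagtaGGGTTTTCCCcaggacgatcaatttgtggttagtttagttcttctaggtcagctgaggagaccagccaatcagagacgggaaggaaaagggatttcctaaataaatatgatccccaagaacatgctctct
Cxcl14: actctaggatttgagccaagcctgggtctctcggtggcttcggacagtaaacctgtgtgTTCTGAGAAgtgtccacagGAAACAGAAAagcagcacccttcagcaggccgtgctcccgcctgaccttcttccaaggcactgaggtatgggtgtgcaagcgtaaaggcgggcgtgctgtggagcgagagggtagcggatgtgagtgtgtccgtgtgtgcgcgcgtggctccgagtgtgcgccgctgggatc
Ccl8: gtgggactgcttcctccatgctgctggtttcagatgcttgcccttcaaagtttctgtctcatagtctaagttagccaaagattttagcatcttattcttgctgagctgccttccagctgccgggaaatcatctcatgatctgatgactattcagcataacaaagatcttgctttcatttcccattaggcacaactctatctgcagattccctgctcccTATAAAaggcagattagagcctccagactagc
An ISRE-like match stood in the windows of Cxcl10 and Cxcl14, starting 213 and 172 bases before the start, and 3.44% of all 32851 promoter windows of 300 bases in the table held one. The windows behind this and the following shares are thus longer than the 250 bases shown for the members. Cxcl10 held 2 kappaB-like matches, GGGAAATTCC and GGGACTTCCC, and Cxcl9 held 1 on the other strand; this motif stood in 20.7% of all windows. The GAS-like match of Cxcl14 (TTCTGAGAA) has its like in 8.3% of all windows. The letters TATAAA stood in the windows of Ccl8, Cxcl9 and Cx3cl1, starting 32, 195 and 6 bases before the start, against 8.32% of all windows. The window of Cxcl12 held no match to these letters. These matches are descriptions of the letters and were not tested for use in the ganglion.

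Among the CC chemokines, which draw monocytes, macrophages and T cells, Ccl8 was called and Ccl2, Ccl5 and Ccl7 were not. Ccl8 (ENSMUSG00000009185, chromosome 11, 82115185 to 82116799, plus strand), a ligand of Ccr8 in the mouse, was at 0.643, 0.734, 0.841 and 0.83 CPM in Sham-Saline and at 1.99, 6.33, 1.09 and 1.8 CPM in SNI-Saline. All 4 injured mice were higher than all 4 sham mice, and SNI-Saline 2 was more than 3 times as high as the next. The difference was 1.88 ± 0.608 (adjusted p = 0.0743; exact permutation p = 0.0286, the smallest possible). It fell to 1.10 without SNI-Saline 2 (adjusted p = 0.307) and was called in 10 of the 16 fits that left out 1 library, the call being lost without any of the 4 Sham-Saline libraries or without SNI-Saline 1 or 2. With GC content and length trends removed it was 1.78 (adjusted p = 0.128), also without a call.

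Ccl5, a T cell and macrophage product, was at 1.3, 0.339, 0.53 and 0.709 CPM in Sham-Saline and at 1.34, 3.42, 1.12 and 0.779 CPM in SNI-Saline. The groups overlapped and SNI-Saline 2 was again the highest library. The difference of 1.22 ± 0.502 had an unadjusted p of 0.0257 and an adjusted p of 0.151, and it was 0.60 without SNI-Saline 2. Ccl2, the main ligand of the monocyte receptor Ccr2, was at 2.64, 1.82, 1.54 and 1.81 CPM in Sham-Saline and at 2.64, 2.8, 1.75 and 2.38 CPM in SNI-Saline. Ccl7, another ligand of Ccr2, was at 1.23, 1.66, 1.06 and 1.13 CPM in Sham-Saline and at 1.58, 1.11, 1.27 and 1.57 CPM in SNI-Saline. For both genes the groups overlapped over most of their range, and the fitted folds were 1.23 and 1.08. A difference in the monocyte-recruiting pair was thus not detectable with 4 mice a group at this time.

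Cxcl14 (ENSMUSG00000021508, chromosome 13, 56288643 to 56296551, minus strand), a chemokine whose receptor is not settled and which is made by epithelia and other tissue cells, gave the lowest p of the 10. It was at 0.313, 0.677, 0.67 and 0.438 CPM in Sham-Saline and at 1.45, 2, 1.51 and 1.56 CPM in SNI-Saline. The groups did not overlap, and the 4 injured mice lay close together. The difference was 1.62 ± 0.33 (adjusted p = 0.015; exact permutation p = 0.0286), and it lay between 1.46 and 1.78 and was called in all 16 fits that left out 1 library. These levels rested on 18 to 48 reads in Sham-Saline and on 80 to 123 reads in SNI-Saline. Ccl8, Cxcl10 and Cxcl14 were the 3 of 10 members whose injured mice all lay above the sham mice, while 7.67% of all genes tested showed this.

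Cxcl16 and Cx3cl1 (fractalkine) are both made as membrane proteins that hold cells with their receptors, Cxcr6 and Cx3cr1, and that are released by the proteases Adam10 and Adam17. Cxcl16 (ENSMUSG00000018920, chromosome 11, 70453983 to 70459984, minus strand) was at 6.41, 7.59, 7.77 and 7.53 CPM in Sham-Saline and at 7.77, 13.3, 10.8 and 8.98 CPM in SNI-Saline. The 2 groups touched at 7.77 CPM. The difference was 0.48 ± 0.167 (adjusted p = 0.0936), it was 0.33 without SNI-Saline 2 (adjusted p = 0.277), and 7 of the 16 fits that left out 1 library called it: those without Sham-Saline 1, 2, 3 or 4, SNI-Saline 2, 3 or 4, Sham-DMI 3 or SNI-DMI 3 did not. The call was lost as well with a block for the replicate number (0.48, adjusted p = 0.137) and with GC content and length trends removed (0.42, adjusted p = 0.158). Zmynd15 overlaps with Cxcl16 on the opposite strand and was higher by 0.54 (adjusted p = 0.0641). Cx3cl1, which neurons make and whose receptor marks macrophages and microglia, was at 7.7, 9.41, 10.4 and 10.5 CPM in Sham-Saline and at 9.92, 10.4, 8.59 and 7.82 CPM in SNI-Saline, and the groups overlapped over nearly their whole range. Cxcl12, which acts through Cxcr4 and Ackr3, was at 30.5, 36, 36.2 and 31.1 CPM in Sham-Saline and at 31.9, 32.5, 34 and 35.5 CPM in SNI-Saline. Its fitted log2 fold change was 0.00 with the smallest SE of the 10 (0.0988 on the log2 scale), so that the most abundant member was also the one with the smallest injury difference.

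**Figure D2:**
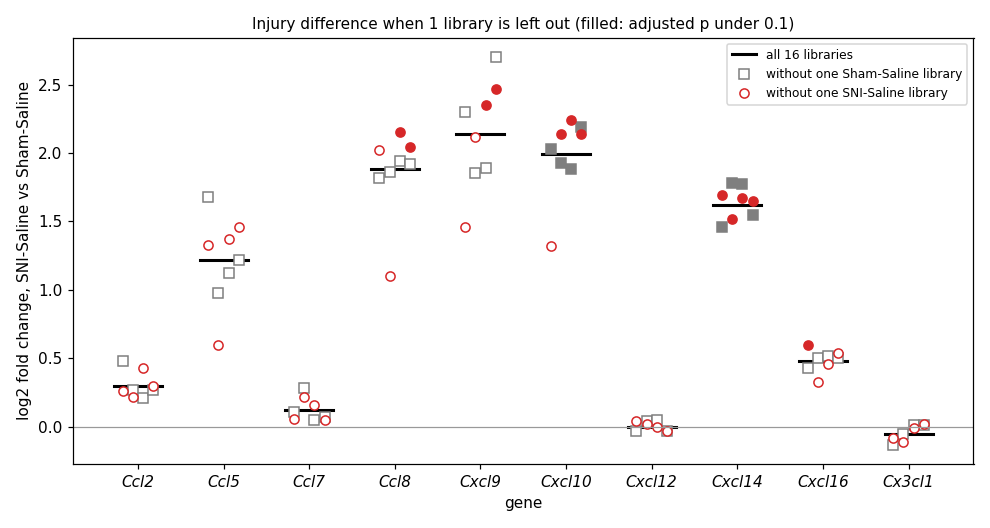
Fitted log2 fold change of SNI-Saline against Sham-Saline (vertical axis) for each chemokine gene with all 16 libraries (black line) and without 1 of the 8 saline libraries (symbols, filled where adjusted p was under 0.1). Cxcl14 stayed between 1.46 and 1.78, while Ccl8 fell to 1.10 without SNI-Saline 2 and Cxcl10 to 1.32 without SNI-Saline 1.

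Treatment of injured mice with DMI gave no called chemokine. In SNI-DMI against SNI-Saline mice, 0 of the 10 members passed an adjusted p of 0.1 in edgeR, 1 had an unadjusted p under 0.05, and DESeq2 called 1, which was the same gene, Cx3cl1. In this comparison edgeR called 2.93% of all genes in either direction, and DESeq2 called 1859 of 38180 genes. The nominal cut-offs for DEGs gave the same 1 of 10, against 5.73% of all genes, and no member separated the 2 groups, against 13.3% of all genes. The median log2 fold change of the members was -0.09, with 7 of 10 below 0.

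Cxcl10, Cxcl9 and Ccl8 differed among the treated injured mice. Cxcl10 was at 14, 2.95, 3.41 and 8.81 CPM in SNI-DMI, so that SNI-DMI 2 and 3 lay within the Sham-Saline range while SNI-DMI 1 and 4 lay within the SNI-Saline range. Cxcl9 showed the same split, at 11.5, 1.19, 0.907 and 4.16 CPM. Ccl8 was at 4.23, 0.873, 0.577 and 1.9 CPM, again with SNI-DMI 1 and 4 within the SNI-Saline range and SNI-DMI 2 and 3 below it. The fitted differences from SNI-Saline were -0.71 ± 0.446 for Cxcl10, -0.63 ± 0.709 for Cxcl9 and -0.57 ± 0.572 for Ccl8, each within 2 SE of 0. With 1 library left out they ranged from -1.22 to -0.01 for Cxcl10, from -1.69 to 0.08 for Cxcl9 and from -1.31 to 0.23 for Ccl8, and the upper ends came without SNI-Saline 1 for Cxcl10 and Cxcl9 and without SNI-Saline 2 for Ccl8. Cxcl14 was at 2.11, 1.35, 0.577 and 2.05 CPM, with SNI-DMI 3 inside the sham range. Ccl5 was at 2.25, 0.888, 0.396 and 1.18 CPM and Cxcl16 at 13.1, 9.08, 10.2 and 8.75 CPM in these mice, the latter within the SNI-Saline range of 7.77 to 13.3 CPM. SNI-DMI 1 held the highest value of its group for 8 of the 10 members, all but Cxcl12 and Cx3cl1, and SNI-DMI 3 the lowest for 5. Ccl2 was at 3.48, 1.42, 1.52 and 2.62 CPM and Ccl7 at 2.84, 1.58, 1.02 and 1.6 CPM in SNI-DMI, both overlapping with SNI-Saline.

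Cx3cl1 differed most from this pattern. It was at 12.8, 9.25, 14.2 and 11.2 CPM in SNI-DMI, where 3 of 4 mice lay above all 4 SNI-Saline mice, whose highest was at 10.4 CPM. The difference was 0.37 ± 0.128 (1.29-fold, unadjusted p = 0.0102, adjusted p = 0.143; exact permutation p = 0.0857), and it was called without SNI-Saline 2 (0.45, adjusted p = 0.0995) and in DESeq2 (adjusted p = 0.0615). Cxcl12 was at 33.5, 28.2, 33.8 and 36.7 CPM in SNI-DMI and differed from SNI-Saline by -0.02 on the log2 scale.

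In sham-operated mice, the fitted levels of all 10 chemokines were below 0 on the log2 scale for DMI against saline, and 1, Cxcl12, passed the test; 46.7% of all genes tested had a fitted difference above 0 in this comparison. Called lower were 11.9% of all genes, so that 1 of 10 members was near the background share. Cxcl12 (ENSMUSG00000061353, chromosome 6, 117168535 to 117181367, plus strand) was at 23, 33.7, 28.8 and 26.4 CPM in Sham-DMI against 30.5 to 36.2 CPM in Sham-Saline, where 3 of 4 treated mice lay below all sham mice given saline. It fell by 0.26 ± 0.0993 on the log2 scale (adjusted p = 0.0868; exact permutation p = 0.114). The call was lost without any of 10 of the 16 libraries (Sham-Saline 2 or 3, SNI-Saline 1 or 2, Sham-DMI 1, 3 or 4, SNI-DMI 1, 3 or 4), and without Sham-DMI 1 the value was -0.16 (adjusted p = 0.321). It was lost as well with upper-quartile scaling (adjusted p = 0.103), in a fit to the 8 libraries of the comparison (adjusted p = 0.174) and with GC content and length trends removed (adjusted p = 0.208). The summed level of 5 endothelial markers, from a cell type that makes Cxcl12, was 62.4 to 94.1 CPM in Sham-Saline and 55.6 to 68.2 CPM in Sham-DMI, with Sham-DMI 1 the lowest. All 5 had a fitted difference below 0 (median -0.27), 1 of them, Tek, was called (-0.44, adjusted p = 0.0136 by edgeR), and no marker was at 0. Their part in the difference of Cxcl12 was not tested.

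Cxcl9 was the member with the largest fitted difference under DMI in sham mice, at 0.785, 0.316, 0.225 and 0.126 CPM in Sham-DMI against 0.55 to 3.02 CPM in Sham-Saline. The groups overlapped only through Sham-DMI 1. The fitted difference was -2.08 ± 0.906 (unadjusted p = 0.0341, adjusted p = 0.128; exact permutation p = 0.0857), with 8 to 46 reads in the treated libraries. It was the 1 member lower by the nominal cut-offs, which held for 7.57% of all genes. DESeq2 called it at an adjusted p of 0.0753, where it called 2584 of 38180 genes lower. The edgeR fits without the filter (adjusted p = 0.0579), with the replicate block (0.0419) and to the 8 libraries alone (0.0528) also called it. In all, 4 of 6 alternatives and 2 of the 16 fits that left out 1 library called it. Cxcl10 was at 2.03, 2.22, 2.72 and 2.21 CPM, in a narrow range that overlapped with Sham-Saline. Ccl8 was at 0.888, 0.604, 0.125 and 0.158 CPM in Sham-DMI, with libraries 3 and 4 far under the sham mice given saline and 5 reads in the lowest. No member had all treated sham mice below all untreated ones, against 8.5% of all genes. The other members overlapped with Sham-Saline, with Ccl2 at 1.78, 1.67, 1.47 and 2.27 CPM, Ccl5 at 0.768, 0.329, 0.599 and 0.457 CPM and Ccl7 at 1.01, 0.755, 0.749 and 1.36 CPM. Cxcl14 was at 0.359, 0.425, 0.574 and 0.299 CPM, Cxcl16 at 6.59, 5.38, 6.04 and 8.62 CPM and Cx3cl1 at 8.86, 8.29, 7.79 and 7.96 CPM.

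**Figure D3:**
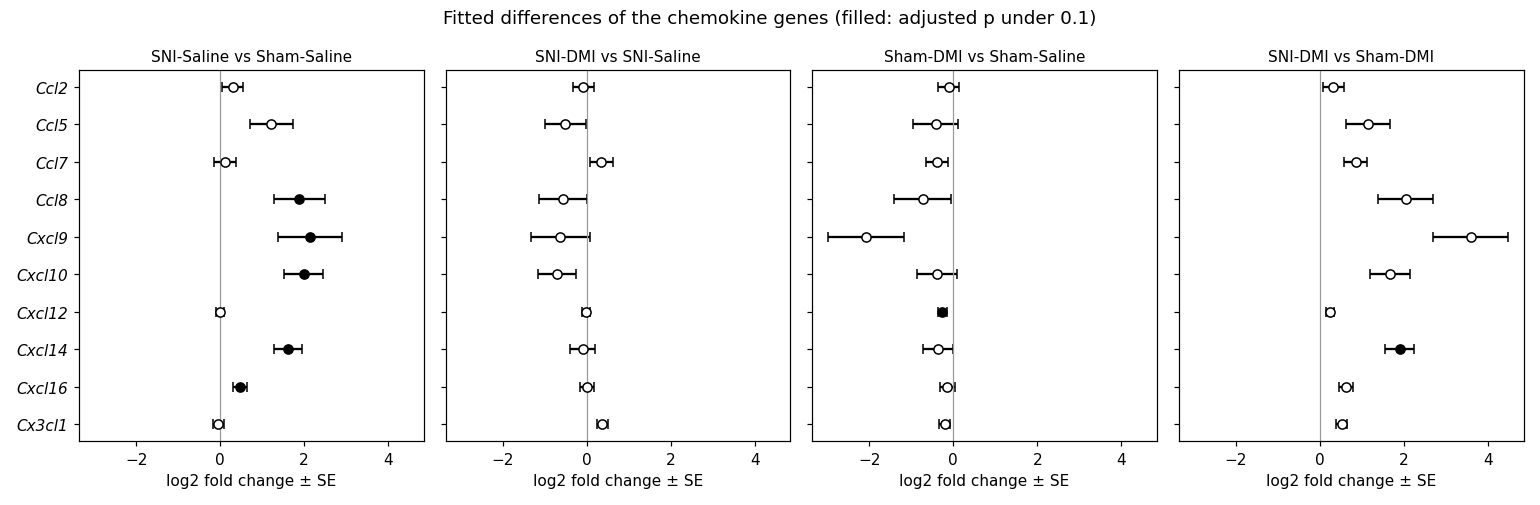
Fitted log2 fold change (horizontal axis) ± SE of each chemokine gene in the 4 comparisons between groups, with filled circles where the adjusted p was under 0.1. After injury without drug 5 genes were called, all higher, while 0 were called for DMI in injured mice and Cxcl12 alone for DMI in sham mice.

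The difference between the effect of DMI in injured mice and its effect in sham mice was called for 0 of the 10 members by edgeR and by DESeq2. Of all genes, edgeR called 0% and DESeq2 called 16 of 38180. For Cx3cl1 the effect in SNI exceeded that in Sham by 0.57 ± 0.181 on the log2 scale (unadjusted p = 0.00533, adjusted p = 0.619), and it was the 1 member with an unadjusted p under 0.05. By the nominal cut-offs 3.45% of all genes differed. The other members had fitted differences between -0.32 for Cxcl10 and 1.45 for Cxcl9, with SEs up to 1.15.

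Between the treated groups, SNI-DMI against Sham-DMI, the fitted levels of all 10 chemokines were higher in the injured mice. This comparison shares its libraries with the DMI comparisons above. Cxcl14 alone passed the adjusted test, at 1.90 ± 0.344 (3.72-fold, adjusted p = 0.0258; exact permutation p = 0.0286, the smallest possible), while 0.374% of all genes were called higher. The call was lost without SNI-DMI 1 (1.71, adjusted p = 0.106) or SNI-DMI 4 (1.70, adjusted p = 0.141) and in a fit to the 8 libraries alone (adjusted p = 0.187). By the nominal cut-offs 8 of 10 members were higher, all but Ccl2 and Cxcl12, against 4.07% of all genes. DESeq2 called 6 of 10 (Ccl7, Cxcl9, Cxcl10, Cxcl14, Cxcl16 and Cx3cl1), and 339 of the 38180 genes it tested were called higher.

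In the same comparison Cxcl9, Cxcl10, Cxcl14, Cxcl16 and Cx3cl1 had all 4 SNI-DMI mice above all 4 Sham-DMI mice, which 2.89% of all genes showed. The fitted difference was 3.59 ± 0.886 for Cxcl9 (unadjusted p = 0.000743, adjusted p = 0.127 by edgeR) and 1.67 ± 0.477 for Cxcl10 (unadjusted p = 0.00253, adjusted p = 0.181). Cxcl9 was called by DESeq2 (adjusted p = 0.0109), without the filter (0.0056), with the replicate block (0.0638) and with GC content and length trends removed (0.0884), and its difference ranged from 2.52 to 4.27 with 1 library left out. For the membrane-bound pair it was 0.52 ± 0.129 for Cx3cl1 (unadjusted p = 0.000699, adjusted p = 0.125) and 0.62 ± 0.168 for Cxcl16 (unadjusted p = 0.0016, adjusted p = 0.157). Among the CC members, Ccl8 differed by 2.04 ± 0.648 (unadjusted p = 0.0056, adjusted p = 0.224), Ccl7 by 0.85 ± 0.27 (unadjusted p = 0.00544, adjusted p = 0.223) and Ccl5 by 1.14 ± 0.526 (unadjusted p = 0.0442, adjusted p = 0.398), each with overlap between the groups. Cxcl12 differed by 0.24 ± 0.0994 (unadjusted p = 0.027, adjusted p = 0.347).

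Of 25 further chemokine ligands 16 were tested, and after injury without drug 2 were higher: Ccl12, a mouse ligand of Ccr2 (0.89 ± 0.243, adjusted p = 0.0428), and Ccl17, a ligand of Ccr4 (1.78 ± 0.559, adjusted p = 0.0669). Among all genes, 5.85% were called higher after injury without drug. Under DMI in sham mice 3 of these ligands were lower, namely Ccl22 (-1.97), the Cxcr3 ligand Cxcl11 (-0.45) and Ccl25 (-0.26), while 11.9% of all genes were called lower. Cxcl11 is annotated as a polymorphic pseudogene in this mouse strain and overlaps with Art3. For DMI in injured mice edgeR called 0 of the 16, 2 had an unadjusted p under 0.05 and DESeq2 called 0, with no adjusted p for 8 of them. The neutrophil-attracting ligands Cxcl3 and Cxcl15 had no reads in any library.

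Of 23 chemokine receptors, 16 were tested. After injury without drug 1 was called higher, against 5.85% of all genes. Under DMI in sham mice 2 were called lower, against 11.9% of all genes, and 1 higher, against 2475 of 21371 genes. For DMI in injured mice 1 was called lower, against 344 of 21371 genes. Cxcr6, the receptor of Cxcl16, was higher after injury (1.25 ± 0.341, adjusted p = 0.0418), at 0.458 to 1.22 CPM in SNI-Saline against 0.241 to 0.435 CPM in Sham-Saline, and lower under DMI in sham mice (-0.99 ± 0.391, adjusted p = 0.0938). Ccr2, the receptor of Ccl2 and Ccl7 on monocytes, was not called with injury (0.10) and was lower under DMI in both surgeries, by -0.63 ± 0.172 in SNI (adjusted p = 0.0904) and by -0.52 ± 0.173 in Sham (adjusted p = 0.0493). It was at 4.59 to 6 CPM in Sham-Saline and 3.95 to 7.44 CPM in SNI-Saline, and at 3.37 to 3.89 CPM in Sham-DMI and 2.79 to 4.25 CPM in SNI-DMI. The call of Ccr2 in SNI was lost without SNI-Saline 1 or 3, or SNI-DMI 1, 2 or 3. In these fits edgeR called 0 genes for DMI in SNI. Ackr1, which binds many chemokines on vessel walls without signaling, was higher under DMI in sham mice by 0.26 ± 0.0787 (adjusted p = 0.0334). It overlaps with Cadm3 on the same strand, so that its reads may not be fully separated from those of Cadm3. The receptors Cxcr3, Ccr1, Cxcr4, Ackr3 and Cx3cr1 were tested and not called in any of these comparisons; Cxcr3 was at 0.0137 to 0.944 CPM over all libraries. Ccr3 and Ccr8 did not pass the filter.

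Of 6 genes that cut or release chemokines, the macrophage elastase Mmp12 was higher after injury with saline (1.81 ± 0.406, adjusted p = 0.0211) and with DMI (2.25 ± 0.433, adjusted p = 0.0371). Adam10, which sheds Cxcl16 and Cx3cl1, was lower under DMI in sham mice (-0.39 ± 0.0997, adjusted p = 0.0147), and Adam17 was not called. Each of these calls was 1 of 6. Among all genes 5.85% were called higher after injury with saline, 0.374% higher after injury with DMI and 11.9% lower under DMI in sham mice. Of 11 factors known to induce chemokines 9 were tested. Irf1, an interferon-induced transcription factor, was higher after injury (0.73 ± 0.225, adjusted p = 0.0636), at 23.6 to 52.7 CPM against 18.4 to 22.4 CPM, and Irf7 was higher in SNI-DMI than in Sham-DMI (1.29 ± 0.288, adjusted p = 0.0841). Each was 1 of 9 tested, against 5.85% and 0.374% of all genes called higher in the same comparisons. Ifng and Ifnb1, which encode interferons, did not pass the filter.

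Within their groups, SNI-Saline 2 and SNI-DMI 1 held the highest summed markers of macrophages, of T and natural killer cells and of B cells. The neutrophil sum was highest in SNI-Saline 2 as well (47.7 CPM), but SNI-DMI 1 (11.4 CPM) lay below SNI-DMI 2 (12.3 CPM). The summed level of 10 macrophage markers was 95.2 to 110 CPM in Sham-Saline and 116 to 196 CPM in SNI-Saline, with the highest value in SNI-Saline 2. After injury without drug 4 of 10 were called higher (Cd68, C1qa, C1qb and Aif1), against 5.85% of all genes. In Sham-DMI the sum was 75 to 102 CPM, where 3 of 10 were called lower (Itgam, Mrc1 and Lyve1), against 11.9% of all genes. In SNI-DMI it was 93 to 177 CPM, with the highest value in SNI-DMI 1. The summed level of 10 T and natural killer cell markers was 2.9 to 3.75, 3.51 to 6.9, 2.07 to 2.57 and 2.92 to 5.23 CPM in the same order of groups, with the highest values again in SNI-Saline 2 and SNI-DMI 1, and of 9 tested edgeR called 0 in any comparison, with at most 2 at an unadjusted p under 0.05, and DESeq2 called 0, with no adjusted p for 4 or 8 of the 9 in the comparisons between groups. SNI-Saline 1, the library with the highest Cxcl9 and Cxcl10 of all 16, was at 118 and 3.86 CPM for the macrophage and the T cell markers, against group ranges of 116 to 196 and 3.51 to 6.9 CPM. Neutrophil markers were lower under DMI in both surgeries (2 of 9 called in SNI, 6 of 9 in Sham) and B cell markers likewise (1 and 2 of 4). The summed level of the B cell list was 1.55 to 4.66 CPM over all libraries. Of all 21371 genes tested, 344 were called lower for DMI in SNI, and 11.9% were called lower for DMI in Sham. The neutrophil and B cell calls in SNI were lost without SNI-Saline 1 or 3, or SNI-DMI 1, 2 or 3, where edgeR called 0 genes. With GC content and length trends removed, 4 genes were called lower for DMI in SNI. No marker of these 4 lists was at 0 in all libraries. The part of cell numbers in the chemokine differences was not tested.

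**Figure D4:**
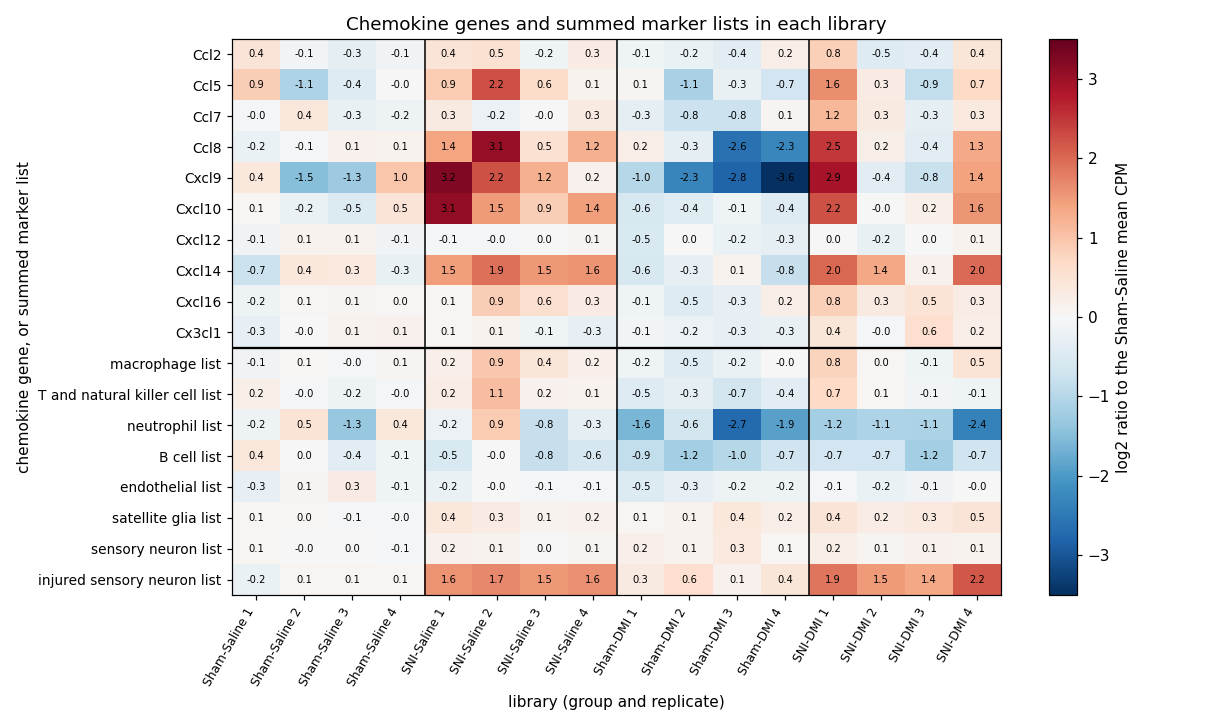
Log2 ratio of each library (columns) to the Sham-Saline mean for the 10 chemokine genes and for the summed levels of 8 marker lists (rows, below the line), with the value printed in each cell. Cxcl9 and Cxcl10 were 3.24 and 3.1 above the mean in SNI-Saline 1, where the macrophage list was 0.19 above it, while Ccl8 was 3.06 above it in SNI-Saline 2, where the macrophage list was 0.93 above it.

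The members fell into different profiles over the 16 libraries. Among the 45 pairs of members, Cxcl9 and Cxcl10 were the most alike (Pearson r = 0.879 and Spearman rho = 0.885 of log2 CPM), and Ccl8 and Cxcl9 came next (r = 0.858), while Ccl5 and Cxcl12 were the least alike (r = 0.022). These values are descriptions over libraries that share groups, and group differences are part of them. The tested genes most like Cxcl10 were Gbp2 (r = 0.974), Ifi47 and Irgm1 (both 0.949), and those most like Cxcl9 were Samhd1 (0.945), Iigp1 (0.938) and Gbp3 (0.926). Those most like Cxcl14 were Csf1 (0.959), Fst (0.955) and Ctla2a (0.933), and without the 2 libraries farthest from the median of Cxcl14 the r with Csf1 was 0.958. Csf1 is also 1 of the 8 injured neuron markers.

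Ccl8 was most like Fcgr2b and Slfn2 (both r = 0.924) and AI662270 (0.905), and Ccl5 was most like Cd300c2 (0.911), Slc11a1 (0.909) and Selplg (0.908). Cxcl16 was most like Ccdc114 (0.919), Ulk4 (0.915) and Ctsh (0.91). Cxcl12 was most like Eng (0.928), Ushbp1 (0.907) and Dusp18 (0.89), and Cx3cl1 was most like Sertm1 (0.864), Pmepa1 (0.856) and Tfap2a (0.838). Ccl2 was most like Il2rg (0.847), Rhoh (0.846) and Il18bp (0.84). For Ccl7 the values were 0.845 for Hist1h2ac, 0.8 for Clec4n and 0.797 for Rnls, and they fell to 0.694, 0.547 and 0.611 without the 2 farthest libraries, the largest loss among the 10 members being that of Clec4n.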

How the data were processed

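RNA from L3-6 DRGs of 16 mice, 4 in each of 4 groups and 1 mouse per library, was sequenced by the authors from a stranded mRNA kit. The authors mapped reads to mm10 with the pipeline NGS-Data-Charmer and tested expression with DESeq2; HISAT2 and HTSeq are named per the labels without a role, and the gene annotation and whether counting used strand are not given in the sources used here. The deposited values are whole-number counts of reads per Ensembl gene without normalization, and reads not assigned to a gene (18.83 to 20.44%) were left out. Groups came from the sample labels. Symbols, coordinates and exon lengths came from GENCODE M21, in which 52403 of the 52636 identifiers were found.

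The main test was edgeR 4.0.16 (quasi-likelihood, TMM scaling, filterByExpr, all 16 libraries, 1 coefficient per group), with Benjamini-Hochberg adjustment over the 21371 genes tested and a call at an adjusted p under 0.1. This was tested on simulated data first. A second rule was an unadjusted p under 0.05 with a log2 fold change of 0.32 or more in size. Single genes were also compared by the two-sided exact permutation test over the 70 splits of 8 mice on log2 CPM (prior count 2). Alternatives were DESeq2 1.42.0, no filter, at least 10 counts in every library, upper-quartile scaling, a block for the replicate number, the 8 libraries of a comparison, GC content and length trends removed, and each library left out. Replicates of a group differed by more than sampling noise, and none was counted as 1 sample with another. The limit of counting was 0.0406 to 0.0728 CPM for 3 reads. All 10 members are given with their values, with SE and p where the unadjusted p was under 0.05; of the other lists, those passing an adjusted p of 0.1 and the members' receptors are named, and for each member the 3 most correlated genes. The members and lists were chosen with earlier results of these data known.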

Additional observations from a re-analysis of the deposited data

Results flagged for a closer look

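Over the 40 sets of 4 libraries (10 genes in 4 groups), 1 value stood apart by Dixon's criterion on log2 CPM, fewer than the 1 in 20 that chance flags. Cxcl16 was at 6.41 CPM in Sham-Saline 1, while the other 3 Sham-Saline libraries lay between 7.53 and 7.77 CPM, so that its gap to the nearest was 0.835 of the range of the group. The injury difference of Cxcl16 was 0.48 with this library and 0.43 without it (adjusted p = 0.198). No member had a difference between the DMI effects in SNI and in Sham that passed an adjusted p of 0.1.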

How the results depend on the processing

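With each library left out, the number of members called ranged from 2 to 5 after injury without drug (5 with all libraries), from 0 to 1 for DMI in SNI (0), from 0 to 1 for DMI in Sham (1) and from 0 to 4 for SNI-DMI against Sham-DMI (1). Over all genes these fits called 682 to 3286, 0 to 1842, 3286 to 6094 and 17 to 850 in the same order. After injury the number of members called was 3 with at least 10 counts in every library, a filter that removes Ccl8 and Cxcl9. It was 2 with GC content and length trends removed, where Ccl8, Cxcl9 and Cxcl16 lost their calls. Of all genes 2765 and 1014 were called in these fits, against 2571 in the main fit. DESeq2 called 1, 2 and 6 members for DMI in SNI, DMI in Sham and SNI-DMI against Sham-DMI. Of the 38180 genes it tested, it called 1859, 5580 and 502 in these comparisons. The main fit called 626, 5010 and 86 of 21371 genes. Without a filter on low counts 2 and 6 members were called in the last pair of comparisons, and 4143 and 310 of 38220 genes. For DMI in Sham 0 members were called with upper-quartile scaling and 0 with GC content and length trends removed, where 5012 and 4135 of all genes were called. For SNI-DMI against Sham-DMI 2 members were called with these trends removed and 0 in the fit to 8 libraries, where 235 and 9 of all genes were called. The cause of these shifts was not tested.

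Whether the replicate numbers pair the samples was not settled: 5 of 24 same-numbered pairs had a correlation of deviations over 0.1 (range -0.081 to 0.184). Differently numbered pairs ranged from -0.248 to 0.169. With the replicate block 2 members were called for DMI in Sham and 2 for SNI-DMI against Sham-DMI, where 4739 and 70 of all genes were called. In this fit Cxcl16 was not called after injury (0.48, adjusted p = 0.137), and the difference between the DMI effects for Ccl2 was -0.032 in place of 0.027.

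Signs turned only for uncalled differences. Leaving out 1 library gave -0.031 to 0.053 for Cxcl12 and -0.127 to 0.022 for Cx3cl1 after injury; for DMI in SNI it gave -0.355 to 0.082 for Ccl2, -1.004 to 0.14 for Ccl5, -1.31 to 0.23 for Ccl8, -1.69 to 0.081 for Cxcl9, -0.072 to 0.048 for Cxcl12, -0.28 to 0.18 for Cxcl14 and -0.12 to 0.18 for Cxcl16 (-0.002 with upper-quartile scaling). For DMI in Sham it gave -0.224 to 0.081 for Ccl2 and -0.67 to 0.037 for Ccl5. For the difference between the DMI effects it gave -0.26 to 0.19 for Ccl2, -0.60 to 0.54 for Ccl5, -0.60 to 0.95 for Ccl8 and -0.85 to 0.37 for Cxcl10. CPM from total counts without TMM moved no group mean by more than 1 SD, and a prior count of 0.5 changed no exact test of the injury difference. Levels of Ccl8 and Cxcl9 in Sham-DMI, from 5 reads upward, are the least precise.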
